A study of Homo sapiens with 6 samples.

Results

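Platelets and the megakaryocytes that shed them carry a small set of effector proteins, and the transcripts of 9 of the genes that encode them were followed here in K562 cells. The genes were ITGA2B, ITGB3, GP1BA, GP9, PF4, VWF, TUBB1, F2R and PLEK, of 19775 genes with a probe set of their own. Their list was chosen with earlier results of these data known. All 22 probe sets that the platform annotation assigns to these genes were used, among 54613 probe sets tested, and 0 probe sets shared with another gene were involved. K562 is a human line from a chronic myeloid leukaemia that carries the BCR-ABL fusion and has erythroid and megakaryocytic potential. Its cells were nucleofected with an siRNA that the labels call RNAi8, or with scrambled RNA (scrRNA), each at up to 200 nM, and 24 hours later ATRA (all-trans retinoic acid, 10e-7 mol/l as the labels write it) or DMSO control was added. How long the cells were then kept before harvest is not stated in the labels. The series concerns PRAME, a cancer-testis antigen that represses retinoic acid receptor signalling, and RNA was hybridised to 6 Affymetrix HG-U133 Plus 2.0 arrays.

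The arrays formed 4 groups from 3 experiments. RNAi8 with ATRA and scrRNA with ATRA held experiments 1 and 3, and RNAi8 with DMSO and scrRNA with DMSO held experiment 2 alone. All groups thus share the cell line, the nucleofection and the wait before treatment, each experiment received a single treatment, and no array came from untransfected cells. Nothing in the labels says that the experiments came from separately thawed cultures, so the spread between them may be partly technical.

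Platelet adhesion begins when the glycoprotein Ib-IX-V complex, of which GP1BA and GP9 are subunits, binds von Willebrand factor (VWF) at a damaged vessel wall. Thrombin then signals through its receptor PAR1, the product of F2R, and activates the integrin made of ITGA2B and ITGB3, which binds fibrinogen and joins platelets to each other. PF4 is a chemokine stored in alpha granules, TUBB1 is the beta tubulin of the platelet's marginal microtubule band, and PLEK encodes pleckstrin, a substrate of protein kinase C. In textbook accounts, K562 cells gain megakaryocytic surface proteins when treated with phorbol esters, and promoters of megakaryocyte genes are typically bound by GATA and ETS family factors.

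The promoter letters of a pair of the members are shown because a motif search found matches in them. ITGA2B held a GATA motif and GP9 held ETS motifs, the classes that textbook accounts assign to megakaryocyte promoters. In the exact forms given below, neither gene held both. Looser forms, such as ggataa in GP9 and aggaaa in ITGA2B, were not counted. RefSeq promoter sequences (GRCh38.p14) matched 4 of the 9 genes by symbol, namely ITGA2B, GP9, TUBB1 and PLEK, and the 250 bases before the gene start are used. Both strands were searched. The GATA motif was AGATAA or AGATAG, and also TGATAA or TGATAG. The ETS motif was AGGAAG, with CGGAAG as its variant. The retinoid receptor element, one arm of the sites these receptors bind, was AGGTCA, with AGTTCA as its variant. Capitals mark every match. In the ITGA2B promoter, on the minus strand of chr17:44389650-44389899, the capitals mark a retinoid element and then a GATA motif. In the GP9 promoter, on the plus strand of chr3:129060529-129060778, they mark 2 ETS motifs on the opposite strand that overlap each other.
ITGA2B: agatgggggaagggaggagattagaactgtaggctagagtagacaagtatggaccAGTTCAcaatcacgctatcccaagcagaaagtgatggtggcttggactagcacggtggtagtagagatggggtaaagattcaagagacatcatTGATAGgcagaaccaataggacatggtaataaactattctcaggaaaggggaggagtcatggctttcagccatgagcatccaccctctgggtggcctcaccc
GP9: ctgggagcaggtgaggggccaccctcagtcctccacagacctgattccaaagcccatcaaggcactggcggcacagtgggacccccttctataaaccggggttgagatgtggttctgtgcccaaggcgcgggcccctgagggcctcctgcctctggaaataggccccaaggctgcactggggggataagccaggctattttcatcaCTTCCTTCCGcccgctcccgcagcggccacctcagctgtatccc
The same windows of TUBB1 and PLEK held none of these motifs. Each of the GATA motif, the ETS motif and the retinoid element was thus found in 1 of the 4 matched genes. Of all 35116 promoters of the table, 22.3% held a GATA motif, 40.8% an ETS motif and 19.7% a retinoid element, so these matches are a description of the letters only.

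The levels below are log2 expression values, and the median over all probe sets was 6.00. Probe sets with a mean below that median are called dim, since no detection calls were used here to set them against background. PRAME (204086_at), the gene the series title names, read 12.13, 12.14 and 12.10 with RNAi8 in experiments 1, 2 and 3, against 12.99 or more in experiments 1 and 2 and 12.70 in experiment 3 with scrRNA, so that every RNAi8 array was below every scrRNA array. That probe set was named after its values were seen. Its difference was -0.78 (95% interval -1.04 to -0.52), with a limma adjusted p of 1 without and 0.0435 with the experiment as a replicate block. Of 11 measured erythroid markers, each read by its brightest probe set, 10 were at or above the median of all probe sets. Their median level was 8.13. Read the same way, 12842 of all 19775 genes were at or above that median, with a median level of 6.73. The brightest of the erythroid markers were TFRC at 13.34, HBZ at 12.03 and RHAG at 11.77. AHSP stood at 6.71, ALAS2 at 6.66, SLC4A1 at 6.22 and EPB42 at 5.21. These markers were named after their values were seen. Experiment 3 stood apart from the others on both of its arrays. Across probe sets, Pearson correlations of its arrays with the remaining 4 were 0.979 to 0.982, against 0.996 to 0.998 within those 4, and its actin 3' minus 5' gap was 2.98 and 3.36 log2 units, against 0.63 to 0.92. The part of these control gaps in any result below was not tested. In such bulk RNA, fewer cells that carry a transcript and less of it per cell cannot be told apart. Of the 22 probe sets of the platelet genes, 9 were at or above the median on all 6 arrays and 10 were below it on all 6.

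**Figure D1:**
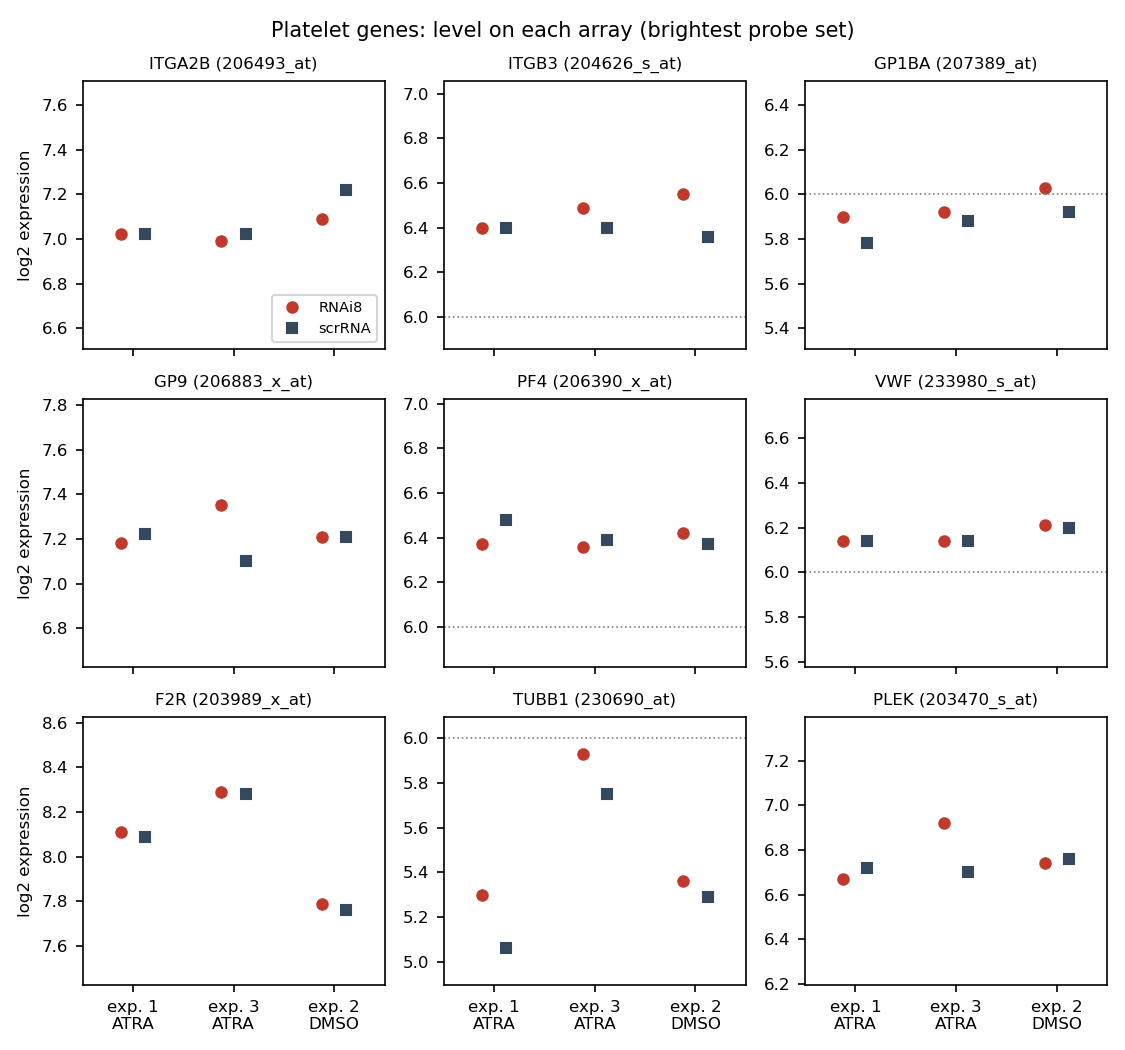
Log2 expression (y axis, 1.2 log2 units high in every panel) of the brightest probe set of each of the 9 genes on each array, by experiment and treatment (x axis), with RNAi8 arrays as circles, scrRNA arrays as squares and the median of all probe sets (6.00) as a dotted line where it falls in the panel. F2R was lowest in the DMSO experiment, TUBB1 was highest in experiment 3 and lay below 6.00 on all 6 arrays, and GP1BA did so on 5 of 6.

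Whether the siRNA altered platelet gene transcripts was asked over all 6 arrays. The fibrinogen receptor integrin showed no difference that passed the test. ITGA2B, its alpha chain (probe set 206493_at), read 7.02, 7.09 and 6.99 with RNAi8 in experiments 1, 2 and 3, against 7.02, 7.22 and 7.02 with scrRNA. The highest array was the scrRNA array of experiment 2, and the groups overlapped. The mean was 7.03 ± 0.05 with RNAi8 and 7.09 ± 0.11 with scrRNA (SD, n = 3 each), which is -0.05 apart (95% interval -0.25 to 0.14). The other 3 ITGA2B probe sets were dim on average and differed by -0.07 to 0.03.

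ITGB3, the beta chain (204626_s_at), read 6.40, 6.55 and 6.49 with RNAi8, against 6.40, 6.36 and 6.40 with scrRNA. The scrRNA arrays were nearly level and the RNAi8 arrays of experiments 2 and 3 stood above them, but the array of experiment 1 did not. The difference was 0.09 (95% interval -0.10 to 0.28). The remaining 6 ITGB3 probe sets differed by -0.07 to 0.16. Of those, 204625_s_at moved in opposite directions, by -0.17 in experiment 1, 0.11 in experiment 2 and 0.53 in experiment 3. Its mean difference of 0.16 became -0.03 without experiment 3, the experiment with the larger control gaps. The dim 204627_s_at likewise ranged between -0.44 in experiment 1 and 0.22 in experiment 3.

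Subunits of the von Willebrand factor receptor were as close. GP1BA, the chain that binds VWF (207389_at), read 5.90, 6.03 and 5.92 with RNAi8, against 5.78, 5.92 and 5.88 with scrRNA. The RNAi8 array was the higher of its pair in each experiment, yet the groups overlapped and 5 of the 6 values were dim. The difference was 0.09 (95% interval -0.07 to 0.25). GP9 (206883_x_at) read 7.18, 7.21 and 7.35 with RNAi8, against 7.22, 7.21 and 7.10 with scrRNA. Only the pair of experiment 3 was apart, by 0.24, and the mean difference of 0.07 had an interval of -0.17 to 0.31. In Affymetrix naming, the x of this probe set marks probes that may bind unrelated transcripts, and the same holds for the probe sets of PF4 and F2R that carry it.

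The brightest probe sets of the secreted proteins spanned less over the 6 arrays than those of the other members. PF4 (206390_x_at) read 6.37, 6.42 and 6.36 with RNAi8, against 6.48, 6.37 and 6.39 with scrRNA. Its 6 arrays spanned 0.12 log2 units, and the difference was -0.03 (95% interval -0.22 to 0.15). VWF (233980_s_at) read 6.14, 6.21 and 6.14 with RNAi8, against 6.14, 6.20 and 6.14 with scrRNA. Its whole span was 0.08, the smallest among the 22 probe sets, and the difference was 0.01 (95% interval -0.15 to 0.16). The second VWF probe set, 202112_at, was dim on every array and was higher with RNAi8 by 0.09, 0.10 and 0.08. That even step of 0.09 stood beside a larger spread between experiments, and its interval was -0.25 to 0.44.

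Of the receptor and the intracellular proteins, F2R had the closest pairs. F2R (203989_x_at) read 8.11, 7.79 and 8.29 with RNAi8, against 8.09, 7.76 and 8.28 with scrRNA. Within each experiment the arrays were 0.01 to 0.03 apart, while the experiment means were spread over 0.51. The difference was 0.02 (95% interval -0.25 to 0.29), and the second F2R probe set, 1569642_at, differed by -0.02. TUBB1 (230690_at), dim on all 6 arrays, read 5.30, 5.36 and 5.93 with RNAi8, against 5.06, 5.29 and 5.75 with scrRNA. It was higher with RNAi8 in each pair, by 0.24, 0.07 and 0.18, and its mean difference of 0.16 had a 95% interval of -0.46 to 0.78, or -0.01 to 0.33 with the replicate block. The other TUBB1 probe set, 208601_s_at, differed by 0.05. PLEK (203470_s_at) read 6.67, 6.74 and 6.92 with RNAi8, against 6.72, 6.76 and 6.70 with scrRNA. Its RNAi8 array of experiment 3 was the high one, and the difference was 0.05 (95% interval -0.20 to 0.29). The dim PLEK probe set 203471_s_at differed by 0.31 in experiment 1, -0.28 in experiment 2 and -0.01 in experiment 3, a mean of 0.01.

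**Figure D2:**
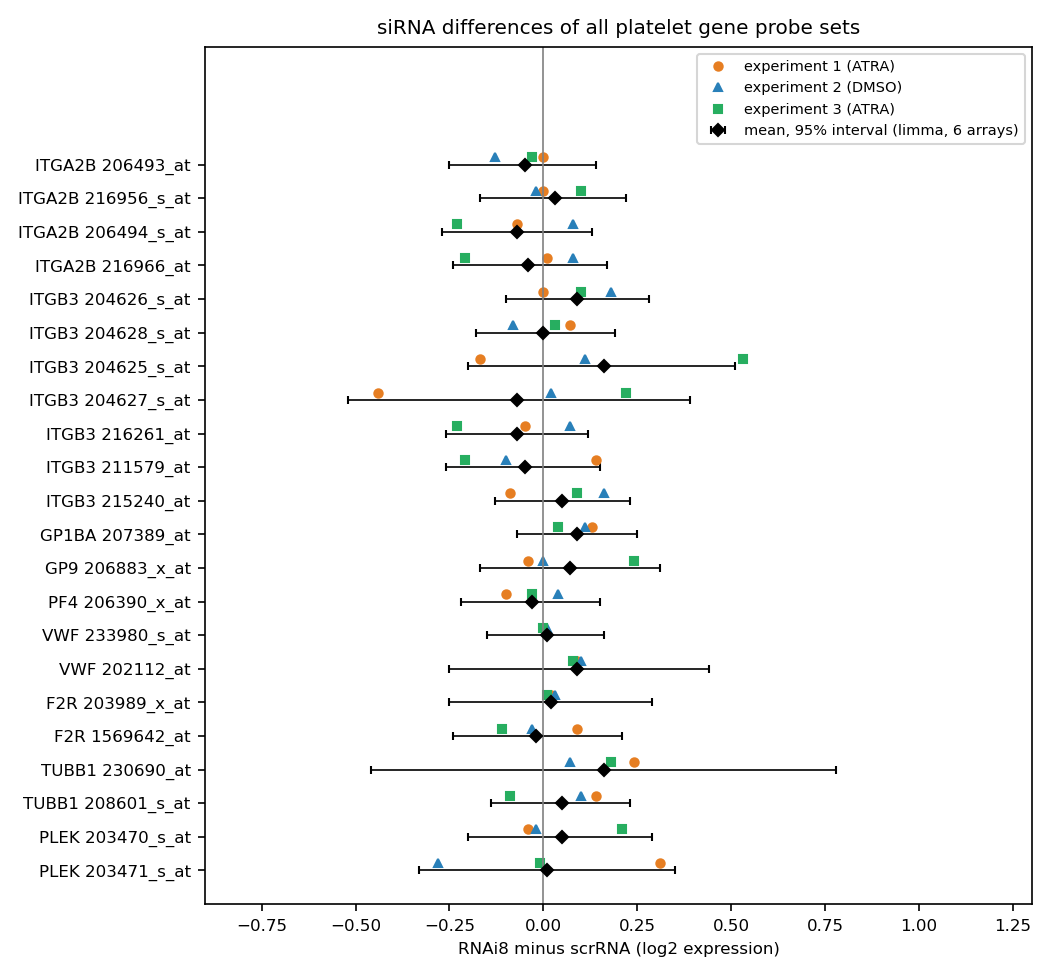
Difference RNAi8 minus scrRNA in log2 expression (x axis) for each of the 22 probe sets (y axis), with the 3 experiments as coloured points and the limma mean with its 95% interval as a black diamond and bar. Every interval includes 0 and lies inside a change of 2-fold in either direction, and the 3 experiments fall on both sides of 0 for most probe sets.

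No platelet gene passed the siRNA test. In limma with treatment as a covariate, 0 of the 22 probe sets passed at an adjusted p of 0.05, as did 0% of all 54613. An unadjusted p below 0.05 was reached by 0 of the 22, against 1.20% of all probe sets. With the experiment as a replicate block, in which each RNAi8 array is set against the scrRNA array of its own experiment, 0 of the 22 passed, with an adjusted p of 0.872 or more, and 0 had an unadjusted p below 0.05, against 0.00183% and 5.27% of all probe sets. The single probe set past that blocked threshold was that of PRAME. The median difference of the 22 was 0.01, beside 0.00 for all probe sets. Of the 22, 4 probe sets (GP1BA, VWF 202112_at, F2R 203989_x_at and TUBB1 230690_at) were higher with RNAi8 in all 3 experiments, against 12.3% of all probe sets, and 0 were lower in all 3, against 11.3%. The RNAi8 and scrRNA arrays overlapped for all 22, and they did not for 3.72% of the whole table. All 22 intervals lay inside a change of 2-fold, the lowest bound being -0.52 (ITGB3 204627_s_at). These intervals do not pair the arrays by experiment, and their median width of 0.40 became 0.34 with the replicate block. With that block the interval was -0.11 to 0.15 for F2R 203989_x_at and -0.06 to 0.25 for VWF 202112_at. A two-sided exact permutation test of 3 arrays against 3 cannot go below p = 0.1, and its values for the 22 ran from 0.3 to 1.

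ATRA-treated and DMSO-treated cells differed most in F2R, without passing the test. Its probe set 203989_x_at read 8.11 and 8.09 (ATRA, experiment 1) and 8.29 and 8.28 (ATRA, experiment 3), with the RNAi8 array first in each pair, against 7.79 and 7.76 (DMSO, experiment 2). All 4 ATRA arrays were above both DMSO arrays. In order of level from the top, the ATRA groups came at 8.20 ± 0.12 with RNAi8 and 8.19 ± 0.13 with scrRNA (SD, n = 2 each), and the DMSO groups at 7.79 with RNAi8 and 7.76 with scrRNA (1 array each). The ATRA groups did not differ beyond their spread, and the DMSO groups have none. The difference between ATRA and DMSO was 0.42 ± 0.23 (SE; 2 ATRA experiments, 1 DMSO experiment), 1.33-fold, with a 95% interval of -0.33 to 1.16 and an adjusted p of 0.995. Experiment 1 alone was 0.32 above experiment 2, and experiment 3 was 0.51 above it.

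The second probe set of the thrombin receptor gene did not show this. F2R 1569642_at read 7.70 and 7.61 (ATRA, experiment 1) and 7.59 and 7.70 (ATRA, experiment 3), against 7.56 and 7.60 (DMSO, experiment 2). Those groups overlapped, and the difference was 0.07 (95% interval -0.56 to 0.70). Only when experiment 3 was set against experiment 2 alone, with the arrays of 1 experiment as replicates, did F2R 203989_x_at pass (0.51, adjusted p = 0.00456). The same fit called 25.4% of all probe sets. In that fit TUBB1 230690_at (0.51, adjusted p = 0.00867) and ITGA2B 216956_s_at (-0.32, adjusted p = 0.0481) passed as well. With experiment 1 against experiment 2, where 0.178% of all probe sets passed, F2R missed the threshold (0.32, adjusted p = 0.179), as did the other 21.

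The brightest probe sets of both integrin chains and both VWF receptor subunits differed by -0.14 to -0.00 between ATRA and DMSO. ITGA2B 206493_at read 7.02 and 7.02 (ATRA, experiment 1) and 6.99 and 7.02 (ATRA, experiment 3), against 7.09 and 7.22 (DMSO, experiment 2). All 4 ATRA arrays were below both DMSO arrays, by a mean of -0.14 (95% interval -0.68 to 0.39). A second ITGA2B probe set, 216956_s_at, read 5.83 and 5.83 (ATRA, experiment 1) and 5.75 and 5.65 (ATRA, experiment 3), against 6.01 and 6.03 (DMSO, experiment 2), a difference of -0.26 (95% interval -0.65 to 0.13). It too kept its groups apart, with a dim mean of 5.85. GP1BA read 5.90 and 5.78 (ATRA, experiment 1) and 5.92 and 5.88 (ATRA, experiment 3), against 6.03 and 5.92 (DMSO, experiment 2). Its difference was -0.11 (95% interval -0.46 to 0.24). ITGB3 204626_s_at differed by -0.03 (95% interval -0.47 to 0.40) and GP9 by -0.00 (95% interval -0.57 to 0.56), with overlapping groups in both. The dim ITGB3 probe set 215240_at was lower on all ATRA arrays, by -0.21 (95% interval -0.45 to 0.03). The dim ITGB3 211579_at and ITGA2B 216966_at went the other way, by 0.13 (95% interval -0.12 to 0.37) and 0.09 (95% interval -0.17 to 0.35), with overlapping groups.

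PF4 and VWF, the granule proteins, differed by -0.07 to 0.00 between treatments. PF4 had experiment means of 6.43 and 6.37 (ATRA, experiments 1 and 3), against 6.40 (DMSO), a difference of 0.00 (95% interval -0.42 to 0.43). VWF 233980_s_at had 6.14 in both ATRA experiments, against 6.20 with DMSO. The groups did not overlap, although the gap was -0.07 (95% interval -0.45 to 0.31). The dim VWF 202112_at lay on both sides of DMSO, at 5.50 (ATRA, experiment 1) and 5.85 (ATRA, experiment 3), against 5.68 (DMSO, experiment 2).

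TUBB1 read further apart between the ATRA experiments than between treatments. TUBB1 230690_at read 5.30 and 5.06 (ATRA, experiment 1) and 5.93 and 5.75 (ATRA, experiment 3), against 5.36 and 5.29 (DMSO, experiment 2). The 2 ATRA experiments lay on opposite sides of the DMSO experiment and were 0.65 apart, the widest such gap among the 22. The mean difference between ATRA and DMSO was 0.19 (95% interval -0.89 to 1.27), and it became -0.14 without experiment 3. TUBB1 208601_s_at differed by -0.08, with overlapping groups. PLEK 203470_s_at had experiment means of 6.69 and 6.81 (ATRA), against 6.75 (DMSO), and 203471_s_at differed by -0.22 (95% interval -0.62 to 0.18) at a dim level.

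**Figure D3:**
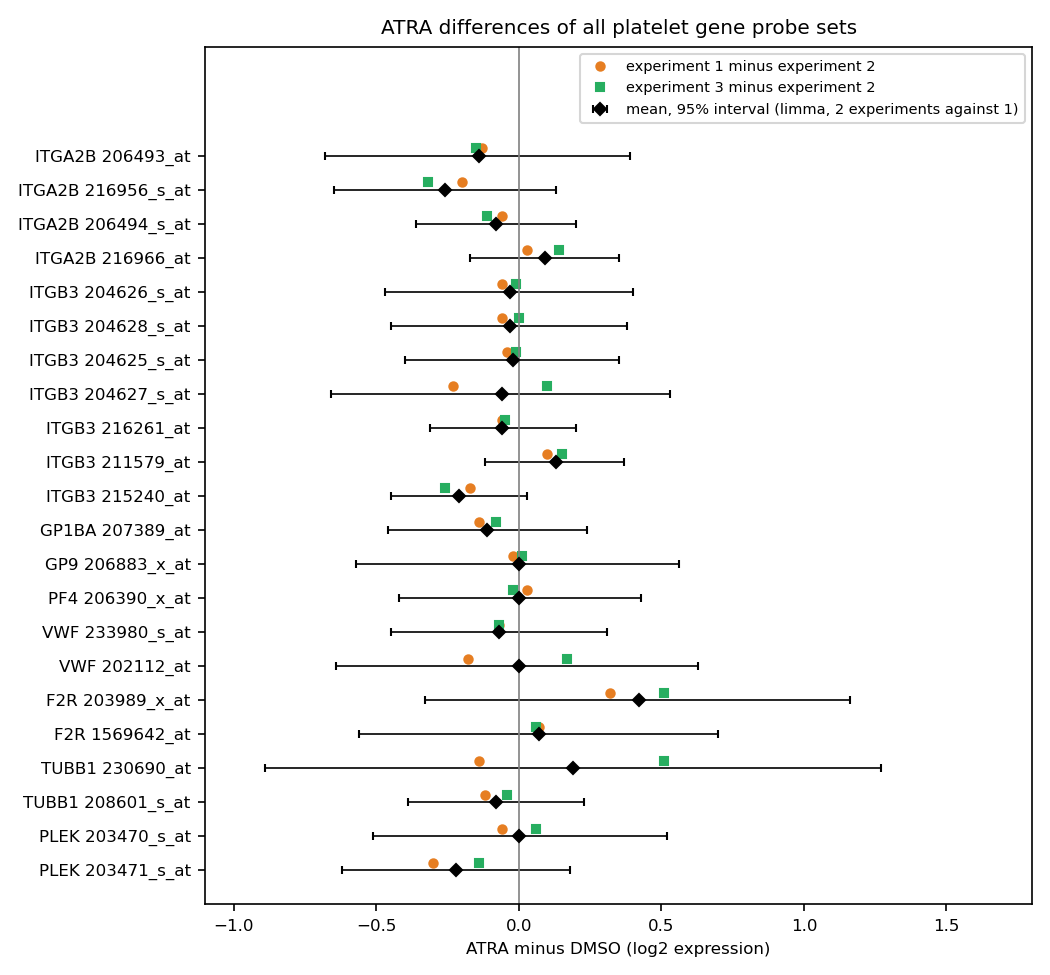
Difference ATRA minus DMSO in log2 expression (x axis) for each of the 22 probe sets (y axis), as experiment 1 minus experiment 2 (circles), experiment 3 minus experiment 2 (squares) and the limma mean with its 95% interval (black diamond and bar). F2R 203989_x_at has both points furthest to the right together, TUBB1 230690_at has points on both sides of 0, and every interval includes 0.

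No platelet gene passed the ATRA test. In limma on the 3 experiment means, 0 of the 22 probe sets passed at an adjusted p of 0.05, as did 0% of all 54613, and 0 of the 22 had an unadjusted p below 0.05, against 0.835% of all. That fit has 1 residual degree of freedom, and 20 of the 22 intervals lay inside a change of 2-fold, the exceptions being F2R 203989_x_at and TUBB1 230690_at. All 4 ATRA arrays were above both DMSO arrays for 1 probe set (F2R), against 11.1% of the whole table. They were below both for 5 (ITGA2B 206493_at and 216956_s_at, ITGB3 215240_at, GP1BA and VWF 233980_s_at), against 11.8% of the whole table. Both ATRA experiments lay above DMSO for 4 of the 22 and below it for 12, against 29.9% and 36.0% of all probe sets. The median difference was -0.03 for the 22 and -0.01 for all probe sets. On 6 arrays without a block, 0 of the 22 passed, against 0.00183% of all, and 3 had an unadjusted p below 0.05, against 4.61%. With the experiment as a random block, 0 passed, against 0.00366%, and 1 had an unadjusted p below 0.05, against 1.60%. A two-sided exact permutation of 2 experiments against 1 cannot go below p = 0.333.

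The siRNA difference under ATRA was then set against that under DMSO, by subtracting the second from the first. For the genes' brightest probe sets this ran from -0.14 for ITGB3 (95% interval -0.60 to 0.33) to 0.14 for TUBB1 (95% interval -1.57 to 1.86). ITGA2B stood at 0.11, PLEK at 0.11, GP9 at 0.10, F2R at -0.02, VWF at -0.01, GP1BA at -0.02 and PF4 at -0.11. The dim PLEK probe set 203471_s_at had the largest value of the 22, at 0.44 (95% interval -0.23 to 1.11). In limma with 4 groups, 0 of the 22 passed, as did 0% of all probe sets, and 0 had an unadjusted p below 0.05, against 1.29% of all, or 2.80% with the replicate block. Of the 22 intervals, 18 lay inside a change of 2-fold, and for the other 4 (ITGB3 204625_s_at and 204627_s_at, TUBB1 230690_at and PLEK 203471_s_at) a difference of that size was within the interval.

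The 22 probe sets varied little. Their span over the 6 arrays had a median of 0.26 log2 units (0.08 to 0.86), beside 0.33 for all probe sets. Experiments 1 and 3, both with ATRA, were 0.06 apart at the median for the 22 and 0.13 for all, and experiment 3 read above experiment 1 for 16 of the 22, against 49.0% of the whole table. Within an experiment, RNAi8 and scrRNA arrays were 0.09 apart at the median for the 22 and 0.08 for all.

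For the 7 members that were at or above the median of all probe sets on all 6 arrays, the genes with the most similar pattern were found by Pearson correlation over the 6 arrays among 12841 genes. F2R was most like LHFPL2 (0.998) and ERI1 (0.997), and 823 genes exceeded 0.9 with it. ITGA2B was most like TSPAN10 (0.993) and POLL (0.992), ITGB3 like HPS6 (0.998) and LINC00951 (0.996), and GP9 like RHBG (0.987) and CORT (0.984). PF4 was most like PLCB2 (0.986) and GPR199P (0.983), VWF like CLDN4 (0.996) and ZSCAN10 (0.992), and PLEK like RSL1D1 (0.990) and CPQ (0.988). Between 31 and 155 genes exceeded 0.9 with each of these. The arrays share experiments, so these values describe 6 points in 3 pairs. The highest of 12841 correlations over so few points is high for almost any pattern, so the genes named are not shown to be co-expressed. The members' own spans were as small as 0.08 log2 units for VWF and 0.12 for PF4.

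The members were read beside the other genes of platelet function, each by its brightest probe set. Of the other 65 measured genes in the 4 role lists, 34 were higher and 31 lower with RNAi8 (median 0.00, beside 0.01 for all 19775 genes), and 0 passed in either direction. Among adhesion receptors, with 14 measured and a median of 0.04, the scavenger receptor CD36 differed by 0.15, GP5 by 0.08 and the podoplanin receptor CLEC1B by -0.06, all dim. Among 20 granule proteins the median was -0.01. SPARC, a matrix glycoprotein of alpha granules, differed by 0.19, at 9.85, 9.80 and 9.92 with RNAi8 against 9.66, 9.67 and 9.68 with scrRNA. These SPARC groups did not overlap, as in 3.72% of all probe sets, and its adjusted p with the replicate block was 0.872. Its second probe set differed by 0.26. THBS1, the alpha granule protein thrombospondin 1, was named after its values were seen. Its brightest probe set read 8.05, 8.17 and 5.40 with RNAi8, against 7.04, 7.69 and 4.82 with scrRNA. It was higher with RNAi8 in each experiment, by 1.01, 0.48 and 0.58, a mean of 0.69 with a limma adjusted p of 1, or 0.562 with the replicate block, and the groups overlapped. EGF differed by 0.13 and CLU by -0.10, both dim.

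Signalling and shape genes gave the same picture. Among 21 agonist receptors and signalling genes (median 0.01), SYK, the tyrosine kinase downstream of collagen receptors, differed by 0.21, the thrombin receptor F2RL3 by 0.16 at a dim level and the Rap exchange factor RASGRP2 by -0.16. The other SYK probe sets differed by 0.09, 0.05 and 0.01. Among 19 cytoskeleton and shape genes (median 0.01), TLN1, the talin that activates integrins, differed by -0.28, RGS18 by 0.10 at a dim level and the receptor TREML1 by 0.12. The other TLN1 probe sets differed by -0.16 and 0.05. As for SPARC, the RNAi8 and scrRNA arrays did not overlap for the brightest probe sets of SYK and TLN1. All of these genes were named for a small unadjusted p, and SYK and TLN1 had a limma adjusted p of 0.872 with the replicate block. Among 13 megakaryocyte transcription factors, 5 were higher and 8 lower (median -0.02), with MEIS1 at -0.22, FLI1 at 0.11 and ERG at -0.05, all dim.

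**Figure D4:**
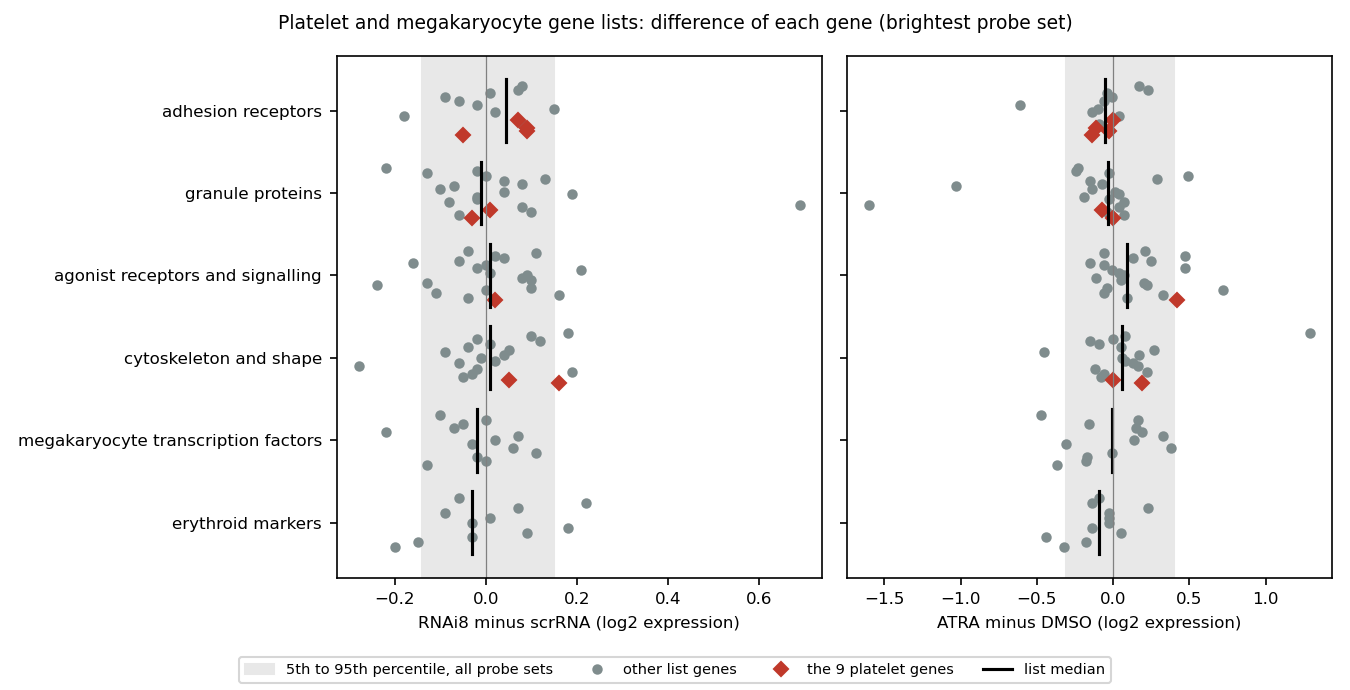
Difference of each listed gene's brightest probe set (points, x axis, log2 expression) for RNAi8 minus scrRNA (left) and ATRA minus DMSO (right), by list (y axis), with the 9 platelet genes as red diamonds, list medians as black bars and the 5th to 95th percentile of all probe sets in grey (-0.14 to 0.15 left, -0.31 to 0.40 right). Of the 9 genes, TUBB1 in the left panel and F2R in the right panel lie just outside the grey band.

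With ATRA, 33 of the 65 genes were higher and 32 lower (median 0.01, beside -0.01 for all genes), and 0 passed. Of all 19775 genes, 9452 were higher with ATRA and 10323 lower. Adhesion receptors were higher in 3 of 14 (median -0.05), and the tetraspanin CD9 read 9.04 and 9.09 (ATRA, experiment 1) and 8.19 and 8.28 (ATRA, experiment 3), against 9.29 and 9.23 (DMSO, experiment 2). That is a difference of -0.61, of which experiment 1 alone gave -0.19. The dim integrin chains ITGA2 and ITGA6 differed by -0.14 and 0.17. Granule proteins were higher in 8 of 20 (median -0.03), with the TGF-beta binding protein LTBP1 at 0.49, EGF at 0.29 and the dim clotting factor chain F13A1 at -0.19. A second LTBP1 probe set differed by -0.44, the opposite direction. Differences further from 0 were seen for THBS1 and for TIMP1, a metalloproteinase inhibitor, both named after their values were seen. THBS1 differed by -1.60, of which experiment 1 alone gave -0.38 and experiment 3 alone -2.82. TIMP1 differed by -1.03, with -0.22 and -1.83 in the same order. Its ATRA arrays were all below its DMSO arrays, as in 11.8% of all probe sets. Both had a limma adjusted p of 0.995. The other CD9 probe sets differed by 0.10 and -0.03.

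Agonist receptors and signalling genes were higher with ATRA in 14 of 21 (median 0.09). The ADP receptor P2RY1 read 6.54 and 6.22 (ATRA, experiment 1) and 7.20 and 7.23 (ATRA, experiment 3), against 5.93 and 6.22 (DMSO, experiment 2), a difference of 0.72. Its groups overlapped at the scrRNA arrays of experiments 1 and 2, and its second probe set, which was dim, differed by 0.02. F2RL3 differed by 0.33 and the adrenergic receptor ADRA2A by 0.20, both dim. Cytoskeleton and shape genes were higher in 12 of 19 (median 0.06). The caveolar protein gene CAVIN2 read 7.23 and 6.93 (ATRA, experiment 1) and 8.20 and 7.98 (ATRA, experiment 3), against 6.31 and 6.28 (DMSO, experiment 2). It was higher by 0.79 in experiment 1 and by 1.79 in experiment 3, a mean of 1.29 that missed the test (limma, adjusted p = 0.995), and its second probe set differed by 0.18. TPM1, a tropomyosin, differed by 0.27, its remaining probe sets by -0.26 to 0.03, and TREML1 by -0.15. Of the transcription factors, 6 were higher and 7 lower (median -0.01), with GFI1B at -0.31, MEIS1 at 0.19 and ERG at -0.16. Second probe sets differed by -1.06 for GFI1B and by 0.73 for MEIS1, the latter dim. That of GFI1B read 7.10 and 7.10 (ATRA, experiment 1) and 6.06 and 5.94 (ATRA, experiment 3), against 7.48 and 7.73 (DMSO, experiment 2). That of MEIS1 read 5.36 and 5.42 (ATRA, experiment 1) and 6.15 and 6.23 (ATRA, experiment 3), against 4.99 and 5.14 (DMSO, experiment 2). Of 12 markers of endothelial cells, which also make VWF, 10 were lower with ATRA, against 10323 of all 19775 genes. Of these markers 4 were not dim, against 12842 of all genes, and the defining CDH5 and KDR stood at 4.65 and 4.14. The summed linear signal of the 12 was 650 to 678 on the ATRA arrays, against 706 and 715 on the DMSO arrays of 1 experiment. All of these arrays were from the K562 line. The VWF probe sets differed by -0.07 and -0.00 with intervals that included 0, and any relation to these markers was not tested. Markers of other blood and support cells had 0 calls too, with 2 of 9 T and NK lymphocyte markers, 4 of 11 monocyte and granulocyte markers and 3 of 9 stromal markers higher with ATRA (medians -0.02, -0.06 and -0.11). Erythroid markers were higher in 2 of 11 with ATRA (median -0.09). With RNAi8 the median differences of the erythroid, endothelial, lymphocyte, myeloid and stromal lists ran from -0.03 to 0.07.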

How the data were processed

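The authors deposited log2 expression values of 6 HG-U133 Plus 2.0 arrays, made by RMA in BRB-ArrayTools per the labels and the series' design text. RMA corrects background, quantile-normalises and summarises probes on the log2 scale, which can shrink small changes of dim probe sets and hides shifts of the whole transcriptome. No version or setting of it is stated in the labels. Of 54675 probe sets, 62 controls were left out of the tests. The platform annotation gave 1 gene to 41091 probe sets, several to 1801 and none to 11721, and 19735 of 19775 genes were found in RefSeq.

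Each comparison was fitted in R 4.3.3 with limma 3.58.1, whose moderated variances (lmFit, then eBayes) followed the intensity. P-values were adjusted by Benjamini and Hochberg's method over 54613 probe sets, at a threshold of 0.05. The siRNA fit used 6 arrays with treatment as covariate (3 residual degrees of freedom) and did not pair the arrays by experiment. The ATRA fit used 3 experiment means (1 residual degree of freedom), since treatment varies only between experiments. The single DMSO experiment is there assumed to vary like the ATRA ones. Their difference used 4 groups (2 residual degrees of freedom). The number of arrays limits the precision. The fits were also run on simulated data with independent noise on each array. Those data held no experiment effect, so that run does not cover the pairing described next. Same-numbered RNAi8 and scrRNA arrays deviated together from their group means (r = 0.703, 0.772 and 0.879 for experiments 1, 2 and 3). No 2 arrays held identical values. Across experiments 1 and 2 the correlations were 0.594 and 0.53, and across either of these and experiment 3 they ran from -0.785 to -0.693. The correlations thus set experiment 3 apart more clearly than experiments 1 and 2 from each other. The experiment numbers in the labels were taken to pair the samples. A gene with several probe sets was represented by the one with the highest mean.

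Named genes were every probe set of the 9 genes, up to 3 other genes per role list with the smallest unadjusted p in each comparison, and the 2 most correlated genes of each member. The members and lists were chosen with earlier results of these data known. The 10 lists held 149 entries, of which 139 were measured. Alternatives covered the replicate block, centring, quantile normalisation, the intensity trend, dim probe sets, 1 or all probe sets per gene, and each array or experiment left out.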

Additional observations from a re-analysis of the deposited data

How the results depend on the processing

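The 9 genes had 0 probe sets past the threshold in the siRNA comparison and in the difference of siRNA effects under every alternative run, the replicate block included. With ATRA, 0 to 3 passed when an experiment or array was left out, the 3 without experiment 1 (F2R 203989_x_at, TUBB1 230690_at and ITGA2B 216956_s_at), and 0 under the other alternatives. Over all probe sets, the siRNA count was 1 with the replicate block and 0 to 1 with arrays or experiments left out. The ATRA count was 1 on 6 arrays without a block, 2 with the experiment as a random block, and 0 to 13872 with arrays or experiments left out, being 13872 without experiment 1 and 97 without experiment 3. The cause was not tested. A direction was counted only for differences above their standard error, a rule chosen after sign changes were seen. By it, TPM1 turned to -0.03 with ATRA when all its probe sets were averaged. With arrays or experiments left out, ITGB3 204625_s_at ran from -0.03 to 0.32 with RNAi8, being -0.03 without experiment 3, and MEIS1 from -0.00 to 0.38 with ATRA. Counting every sign, 39 of 333 siRNA values, 25 of 296 ATRA values and 24 of 132 values of their difference changed sign with arrays or experiments left out. Under the other alternatives 0 of 211, 7 of 250 and 5 of 116 did. The replicate block changed no other call. The ATRA comparison and the difference could not be fitted without the DMSO experiment, and the difference without experiment 1 or 3 is a value with no test. With 1 DMSO experiment, treatment and experiment cannot be told apart, and dim probe sets limit what can be read for GP1BA and TUBB1. The brightest probe sets of ITGB3, PF4 and VWF, with means of 6.43, 6.40 and 6.16, lay little above the median of 6.00. Without detection calls, a small span at such levels is not shown to be that of a stably expressed transcript.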
